A study of Mus musculus with 16 samples.

Results

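Interleukin-18 is a cytokine of the interleukin-1 family that is stored as an inactive precursor, is cut by inflammasome proteases such as caspase-1, and drives interferon-γ release from T and NK cells. Its receptor is a pair of chains: Il18r1 binds the cytokine and Il18rap joins the complex and passes the signal to Myd88 and NF-κB. Il18bp encodes a secreted protein that binds mature interleukin-18 and keeps it from the receptor, and interferon-γ is known to raise its expression, in human cells through IRF1 and C/EBPβ. The 4 genes of this axis (Il18bp, Il18, Il18r1 and Il18rap) were read from the rows that carry their symbols among the 23996 genes of the RNA-Seq tables. Il18bp was selected because, besides the deleted gene Ssu72, it was lower in the Ad-Cre than in the Ad-Luc group of each cell type (MEFs, hepatocytes and ES cells). It was thus chosen by the group values of that same contrast, so its lower values are a description and were given no test.

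All cells came from C57BL/6 mice with floxed Ssu72, in which loxP sites flank exon 1. The 16 samples were MEFs from embryonic day 13.5 (3 Ad-Luc, 3 Ad-Cre), hepatocytes of mice labelled as 6 weeks old, though the methods give a lower age (3 Ad-Luc, 3 Ad-Cre) and ES cells from the inner cell mass (2 Ad-Luc, 2 Ad-Cre). Ad-Luc is an adenovirus carrying luciferase, and the cells that received it are labelled wild type although they carry the floxed gene too, while Ad-Cre carries Cre recombinase and its cells are labelled knockout. Cells of both arms were thus infected with an adenovirus, and the labels do not say whether samples of 1 group came from separate animals or cultures. The deposited tables give 1 FPKM (mapped fragments scaled to transcript length and to library size) per gene and group, as the authors' group value. No value per sample was analysed here, so no SD, n or p stands beside any value, depth is unknown, and whether a difference exceeds the spread between replicates cannot be judged. A gene is called lower or higher below when the Ad-Cre and Ad-Luc values differed by more than 1.5-fold and the larger one was at least 1 FPKM.

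Ssu72, which removes phosphates from the tail of RNA polymerase II, was at 22.7 FPKM in Ad-Luc and 3.69 FPKM in Ad-Cre MEFs, at 26.0 and 5.12 FPKM in hepatocytes, and at 99.2 and 44.7 FPKM in ES cells, values to which transcripts lacking exon 1 can still add. The median log2 ratio of Ad-Cre over Ad-Luc over all genes that reached 1 FPKM was 0.01 in ES cells, 0.02 in hepatocytes and 0.04 in MEFs. The labels matched the markers: fibroblast genes summed to 13604 FPKM in Ad-Luc MEFs, hepatocyte genes to 5990 FPKM in Ad-Luc hepatocytes and ES cell genes to 6125 FPKM in Ad-Luc ES cells. These sums were 7674, 5168 and 6008 FPKM in the Ad-Cre groups, and 5 of 7 fibroblast genes in MEFs and 4 of 7 hepatocyte genes in hepatocytes were lower. Of all genes at 1 FPKM or more, 8.85% were lower and 8.43% higher in MEFs, and 5.91% and 6.55% in hepatocytes. Macrophage and Kupffer cell genes were present in MEFs, with 7 of 10 at 1 FPKM or more, a sum of 178 FPKM in Ad-Luc and 190 FPKM in Ad-Cre cells, none past 1.5-fold, and the Kupffer cell gene Clec4f listed at 0. In hepatocytes these genes summed to 14.3 and 12.95 FPKM and in ES cells to 28.7 and 25.5 FPKM. The bile duct genes of the hepatocyte groups summed to 20.4 FPKM in Ad-Luc and 43.6 FPKM in Ad-Cre cells (2 of 4 higher), and the endothelial genes to 14.4 and 20.9 FPKM (1 of 6 higher). The fibroblast genes of the hepatocyte groups summed to 618 FPKM in Ad-Luc and 982 FPKM in Ad-Cre cells, with 4 of 7 at 1 FPKM or more and 1 higher. The ES cell genes of these hepatocyte groups summed to 2.94 and 11.1 FPKM, with 1 of 7 at 1 FPKM or more, which was higher. In MEFs the endothelial genes summed to 4.71 and 8.60 FPKM (1 of 6 higher) and the bile duct genes to 12.6 and 18.7 FPKM (1 of 4 higher, 1 lower). The T and NK cell genes together reached at most 0.0549 FPKM in any MEF or hepatocyte group, and the NK receptor gene Ncr1 was listed at 0 in all 6 groups. In bulk RNA, fewer cells of a type and less RNA per cell cannot be told apart, and the part of these marker shifts in the values below was not tested.

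Il18bp lies on chromosome 7 of mm10 (GRCm38) from 102015077 to 102018155 on the minus strand, Il18 on chromosome 9 from 50565368 to 50581837, and Il18r1 (40465552 to 40500854) and Il18rap (40515362 to 40551705) stand in tandem on chromosome 1, these 3 on the plus strand. These are the deposited loci, with strands from GENCODE M21. RefSeq promoter windows of 300 bases, from 250 before to 50 after a start (GRCm38.p6), were found for all 4 genes, 6 windows in all because Il18r1 has 3 starts. They were searched on both strands for the interferon-stimulated response element GAAANNGAA, the gamma-activated site TTCNNNGAA, the C/EBP-like motif TTGCNNAA, the AP-1 motif TGANTCA and TATAAA. The first motif is that of IRF factors. None of the windows held the first motif, which 8.56% of all 32851 promoter windows hold. The single Il18bp window held 1 match, to the C/EBP-like motif (10.8% of all windows), beginning 49 bases before the RefSeq start and inside a non-coding part of the first exon of a longer annotated Il18bp transcript. The window of the third Il18r1 start held a pair of gamma-activated sites (8.30% of all windows hold at least 1), beginning 219 and 152 bases before that start. The first lies in a non-coding exon part of annotated Il18r1 transcripts and the second in an intron. The Il18 window held TATAAA on the opposite strand (13.6% of all windows), beginning 175 bases before the RefSeq start and within an intron of Bco2. This window (50554450 to 50554749) does not reach the deposited Il18 locus, which begins at 50565368. In GENCODE M21 Il18 begins at 50554827 and overlaps Bco2. AP-1 letters (7.81% of all windows) were found in none of the 6. A match is a run of letters and no evidence of binding. The 4 matches are printed with the motif in capitals, on the strand of the gene, so that the letters near these starts can be read beside the values.
Il18bp, C/EBP-like, chr7:102018263-102018292, minus strand: tggagccagtgTTGCGGAAgtgccttcctg
Il18r1, gamma-activated site, chr1:40465777-40465806, plus strand: tcggggttagTTCTGGGAActgtggagctc
Il18r1, gamma-activated site, chr1:40465844-40465873, plus strand: agtacaggtcTTCCCAGAActgaaagcttg
Il18, TATAAA on the opposite strand, chr9:50554513-50554542, plus strand: tggttaaataacTTTATAattaactgtgca

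Il18bp, the secreted inhibitor, was at 5.30 FPKM in Ad-Luc and 2.21 FPKM in Ad-Cre MEFs, a log2 ratio of -1.26 (2.39-fold lower). It was at 8.31 FPKM in Ad-Luc and 4.74 FPKM in Ad-Cre hepatocytes (-0.81, 1.76-fold lower) and at 1.70 and 1.13 FPKM in ES cells (-0.59, 1.51-fold lower). The Ad-Cre value was the lower one in each cell type, which follows from the choice of Il18bp. Its log2 ratio was lowest in MEFs and highest in ES cells. That of Ssu72 had the same order (MEFs -2.62, hepatocytes -2.34, ES cells -1.15). Nothing is read from this order of 3 points, since the share of all genes called lower, given below, fell in it too. Ranked among the genes of its cell type, Il18bp had another order and stood lowest in ES cells. The percentage of all genes reaching 1 FPKM whose ratio lay below that of Il18bp was 0.828% in ES cells, 1.83% in MEFs and 3.56% in hepatocytes. A call of lower was made for 1106 of 12498 genes in MEFs (8.85%), 710 of 12008 in hepatocytes (5.91%) and 102 of 12072 in ES cells (0.845%).

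**Figure D1:**
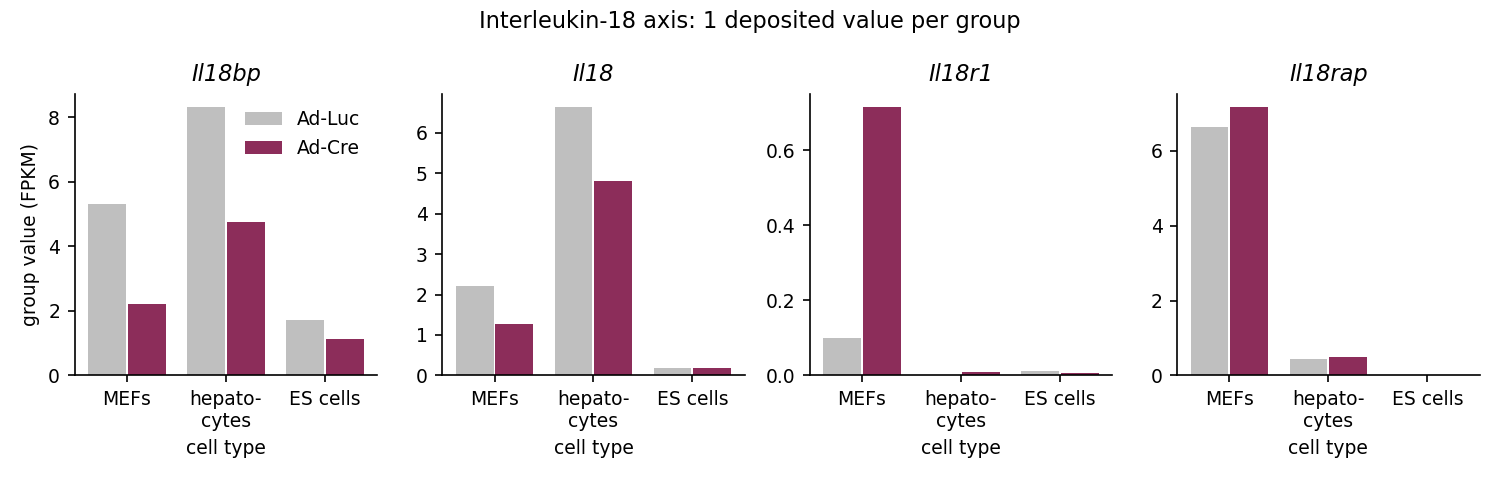
Deposited group values in FPKM of the 4 interleukin-18 axis genes in MEFs, hepatocytes and ES cells, with 1 bar per group (grey, Ad-Luc; purple, Ad-Cre), no error bars because there is 1 value per group, and a separate vertical axis for each gene. Il18bp was lower in the Ad-Cre group of each cell type, Il18 was past 1.5-fold in MEFs (-0.80) but not in hepatocytes (-0.47), and Il18r1 reached 0.716 FPKM in Ad-Cre MEFs.

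Of the 10050 genes at 1 FPKM or more in all 3 cell types, 3 were lower in all of them (0.0299%), and 39 (0.388%) were higher in all. The 3 were Ssu72, Il18bp and the microRNA gene Mir25, whose values of 247 FPKM in Ad-Luc and 0 in Ad-Cre MEFs, 329 FPKM and 0 in hepatocytes, and 230 and 127 FPKM in ES cells are those of a very short gene, where an exact 0 can be a failed estimate. Il18bp passed narrowly, since its ES value of 1.51-fold stands just inside the 1.5-fold limit. The nearest genes just outside were Ggcx and Tle2, which were lower in MEFs and hepatocytes and had log2 ratios of -0.55 and -0.51 in ES cells. With 0.1 FPKM added to both values the ES log2 ratio of Il18bp was -0.55, and with 1 FPKM added it was -0.34, both inside 1.5-fold, so that Il18bp then left the set lower in all 3 cell types. With a minimum of 0.1 FPKM the set grew to 15 genes, and Pycard, the adaptor that links inflammasome sensors to caspase-1, was among them. Pycard was at 0.647 FPKM in Ad-Luc and 0.349 FPKM in Ad-Cre MEFs, at 0.343 and 0.208 FPKM in hepatocytes, and at 8.26 and 5.28 FPKM in ES cells.

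**Figure D2:**
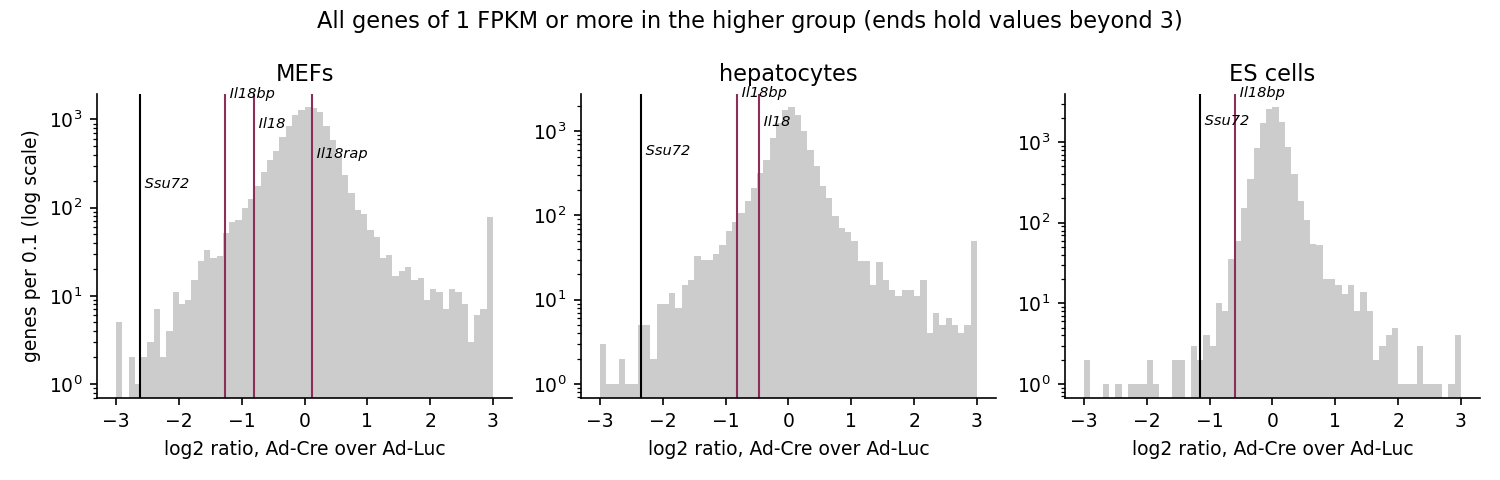
Distribution of the log2 ratio of Ad-Cre over Ad-Luc over all genes with 1 FPKM or more in their larger value (horizontal axis; genes per bin of 0.1 on a log vertical axis; the end bins hold values beyond 3), with lines for Ssu72 (black) and the axis genes that reached this level (purple). Il18bp stood at -0.59 in ES cells, -0.81 in hepatocytes and -1.26 in MEFs, in the lower tail of each distribution, while Il18rap stood at 0.11 in MEFs.

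Il18, the cytokine itself, was at 2.22 FPKM in Ad-Luc and 1.27 FPKM in Ad-Cre MEFs, a log2 ratio of -0.80 that passed 1.5-fold. It was at 6.64 FPKM in Ad-Luc and 4.81 FPKM in Ad-Cre hepatocytes (-0.47, 1.38-fold lower and inside 1.5-fold). In ES cells Il18 was at 0.173 and 0.178 FPKM, under the minimum level. Il18 was thus called lower in MEFs alone, and in both cell types in which it reached 1 FPKM its log2 ratio was nearer to 0 than that of Il18bp. The FPKM of Il18bp over that of Il18 was 2.39 in Ad-Luc and 1.74 in Ad-Cre MEFs and 1.25 and 0.984 in the hepatocyte groups. In ES cells, where Il18 was barely detected, it was 9.82 and 6.33. These are ratios of RNA levels per length, and say nothing of the amounts of protein.

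Il18rap, the signalling chain of the receptor, was at 6.63 FPKM in Ad-Luc and 7.18 FPKM in Ad-Cre MEFs (log2 ratio 0.11, 58.4% of genes with a lower ratio). It was at 0.448 FPKM in Ad-Luc and 0.499 FPKM in Ad-Cre hepatocytes, and was listed at 0 and 0.00214 FPKM in ES cells. The accessory chain was thus found mainly in MEFs, and the pair of MEF values lay close together. Il18r1, the binding chain, was at 0.10 FPKM in Ad-Luc and 0.716 FPKM in Ad-Cre MEFs, a log2 ratio of 2.84 (7.15-fold higher), with both values under the minimum of 1 FPKM. It was listed at 0 in Ad-Luc hepatocytes and at 0.00932 FPKM in Ad-Cre hepatocytes, and at 0.0124 and 0.00544 FPKM in ES cells. The FPKM of Il18rap was 66.2 times that of Il18r1 in Ad-Luc MEFs and 10.02 times in Ad-Cre MEFs, so the chains were far apart in level in both groups. Of the axis genes at 1 FPKM or more, 1 of 1 in ES cells, 1 of 2 in hepatocytes and 2 of 3 in MEFs were called lower, beside 0.845%, 5.91% and 8.85% of all genes. Il18bp, selected for this, is in each of these counts, and nothing is read from them. None was called higher, where the share of all genes called higher was 2.39% in ES cells, 6.55% in hepatocytes and 8.43% in MEFs.

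By level in Ad-Luc cells, the order in MEFs was Il18rap, Il18bp, Il18 and Il18r1, while in hepatocytes it was Il18bp, Il18, Il18rap and Il18r1. In ES cells Il18bp came first, followed by Il18, Il18r1 and Il18rap. Il18bp stood at the 53.6th percentile of all genes above 0 FPKM in Ad-Luc MEFs, the 57.6th in hepatocytes and the 39.1st in ES cells, and at the 43.1st, 49.5th and 35.8th in the Ad-Cre groups. Its Ad-Luc level in hepatocytes was 1.57 times that in MEFs and 4.89 times that in ES cells. For Il18, the Ad-Luc level in hepatocytes was 2.99 times that in MEFs and 38.4 times that in ES cells. The tables of the cell types were made separately, whether their FPKM share a scale is not given in the sources used here, and with 1 value per group it cannot be said which neighbours in these orders differ beyond their spread.

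Il18r1 and Il18rap belong to a cluster of 6 interleukin-1 family receptor genes, all on the plus strand of chromosome 1, in the order Il1r2, Il1r1, Il1rl2, Il1rl1, Il18r1 and Il18rap. In MEFs the 3 genes at the head of the cluster had lower Ad-Cre values. The decoy receptor Il1r2 was at 0.951 and 0.504 FPKM in Ad-Luc and Ad-Cre MEFs (log2 ratio -0.92, under the minimum), the interleukin-1 receptor Il1r1 at 26.1 and 10.1 FPKM (-1.37), and the interleukin-36 receptor Il1rl2 at 15.4 and 6.60 FPKM (-1.23). The next 3 genes had higher Ad-Cre values: Il1rl1, the interleukin-33 receptor, was at 662 FPKM in Ad-Luc and 860 FPKM in Ad-Cre MEFs (0.38), and Il18r1 (2.84) and Il18rap (0.11, negative when centred on the ribosomal protein genes) followed. The cluster was therefore not uniform in MEFs, and Il1rl1 exceeded every other gene of it by level. Centring on the ribosomal protein genes moves MEF log2 ratios by 0.27 downward, and the directions of the other 5 genes hold.

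**Figure D3:**
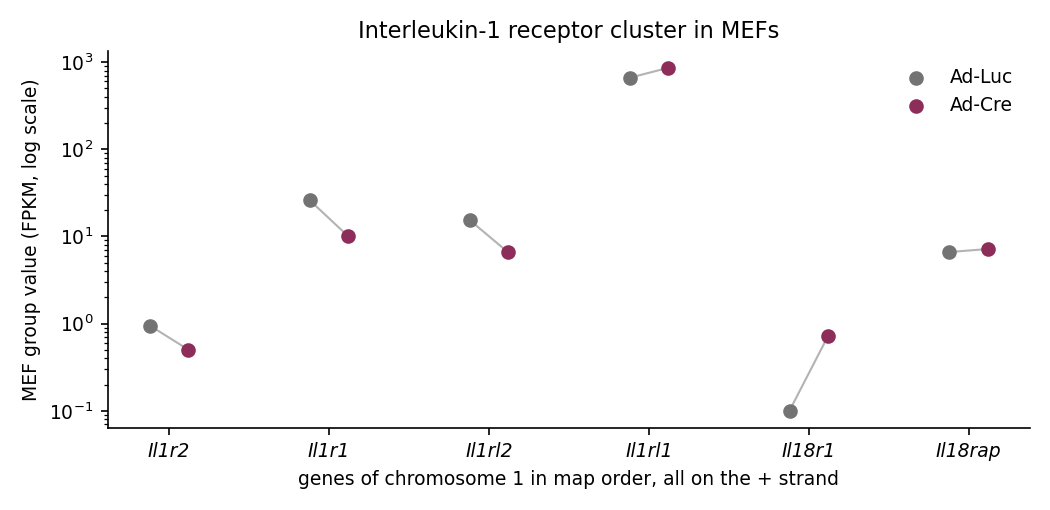
Deposited FPKM in MEFs (log vertical axis) of the 6 interleukin-1 family receptor genes on chromosome 1 in map order, with a grey point for the Ad-Luc and a purple point for the Ad-Cre group value of each gene. The lines run downward for Il1r2, Il1r1 and Il1rl2 and upward for Il1rl1, Il18r1 and Il18rap (the last turns when centred on ribosomal protein genes), with Il18r1 going from 0.10 to 0.716 FPKM beside Il1rl1 at 662 and 860 FPKM.

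The deposited locus of Il18r1 begins 137 bases after that of Il1rl1 on the same strand. In MEFs the FPKM of Il18r1 was 0.0151% of that of Il1rl1 in Ad-Luc and 0.0833% in Ad-Cre cells. In hepatocytes Il1rl1 itself was at 0.128 FPKM in Ad-Luc and 0.0430 FPKM in Ad-Cre cells, and Il18r1 was at or below 0.00932 FPKM. In MEFs Il1rl1 was 1.30-fold higher in Ad-Cre cells and Il18r1 7.15-fold higher, the latter from values under 1 FPKM in both groups. Whether fragments from Il1rl1 transcripts that run past the end of the gene entered the Il18r1 values was not tested, since the tables hold no coverage along the genes. The 136 bases that separate the annotated genes in GENCODE M21 lie between genes and are shown because this short stretch is all that parts Il18r1 from its abundant neighbour.
Il1rl1 to Il18r1, chr1:40465416-40465551, plus strand: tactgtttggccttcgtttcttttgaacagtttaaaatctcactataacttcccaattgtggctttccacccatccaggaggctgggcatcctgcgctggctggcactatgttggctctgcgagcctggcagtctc

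Il18bp also has close neighbours. Numa1, a protein of the mitotic spindle, runs towards it on the plus strand and ends 117 bases from it in the deposited loci, while in GENCODE M21 the 2 genes overlap by 80 bases at their 3′ ends. Numa1 was at 17.97 FPKM in Ad-Luc and 15.2 FPKM in Ad-Cre MEFs (log2 ratio -0.24), at 39.6 and 43.8 FPKM in hepatocytes (0.15), and at 48.0 and 42.0 FPKM in ES cells (-0.19). The libraries were stranded, but the strand setting of the counting is not given in the sources used here, so fragments of the overlap may be shared. Rnf121, a RING finger protein gene that begins on the far side and runs in the same direction as Il18bp, ends 1716 bases before it in the deposited loci. In GENCODE M21 the 2 genes lie closer, with Il18bp reaching to 102018690 and Rnf121 ending at 102019137. Rnf121 was at 22.1 and 15.7 FPKM in Ad-Luc and Ad-Cre MEFs (-0.50), at 20.02 and 16.1 FPKM in hepatocytes (-0.31), and at 9.52 and 8.97 FPKM in ES cells (-0.09). Neither neighbour passed 1.5-fold in any cell type. Il18bp was selected for being lower in all 3, which made a place below both likely, and nothing is read from it. Within 20 kb of Il18, Sdhd, a subunit of succinate dehydrogenase, had log2 ratios of -0.26 in hepatocytes, 0.10 in ES cells and 0.18 in MEFs. The carotenoid oxygenase gene Bco2 reached 1 FPKM only in hepatocytes (1.88 and 1.47 FPKM), and Tex12 was at most at 0.428 FPKM in any group.

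The inflammasome genes, which build the machinery that matures interleukin-18 and opens the cell for its release, were a list of 19. In MEFs 8 of them reached 1 FPKM, 1 was higher and 1 lower, with a median log2 ratio of -0.14 beside 0.04 for all genes, of which 8.43% were higher and 8.85% lower. Shares of 1 in 8 are near that background. Nlrp3, a sensor of cell damage, was at 0.699 FPKM in Ad-Luc and 1.31 FPKM in Ad-Cre MEFs (0.90), and Casp4, which senses lipopolysaccharide in the cytosol, was at 30.003 and 19.4 FPKM (-0.63). In hepatocytes 9 reached 1 FPKM and 2 were lower (median -0.15 beside 0.02, with 5.91% of all genes lower), namely Txnip, a partner of Nlrp3 that binds thioredoxin (78.6 and 46.6 FPKM, -0.75), and the pore-forming gasdermin gene Dfna5 (4.60 and 2.84 FPKM, -0.69). Nlrp3 itself had a higher Ad-Cre value in hepatocytes too (0.0493 and 0.574 FPKM, 3.54), but under the minimum. In ES cells 10 reached 1 FPKM and 1 was lower (median 0.07 beside 0.01, with 0.845% of all genes lower), Pycard at -0.65. Casp1, the protease that cuts interleukin-18, was named after its values were seen. It was at 0.430 and 0.641 FPKM in MEFs, 0.0749 and 0.0600 FPKM in hepatocytes and listed at 0 in both ES cell groups, below 1 FPKM throughout.

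Among the other ligands of the interleukin-1 family, no gene was higher, where 8.43% of all genes in MEFs and 6.55% in hepatocytes were. In MEFs 5 of 9 reached 1 FPKM and 2 were lower (median -0.42), Il1rn and Il1a, where 8.85% of all genes were lower. Il1rn encodes the antagonist of the interleukin-1 receptor and was at 14.7 FPKM in Ad-Luc and 6.42 FPKM in Ad-Cre MEFs (-1.20). Il1a, an interleukin-1 cytokine, was at 2.83 and 1.81 FPKM (-0.65). In hepatocytes 3 reached 1 FPKM and all of these were lower (median -1.02), where 5.91% of all genes were. They were Il1f9, an interleukin-36 cytokine (9.65 and 6.27 FPKM, -0.62), Il33, an alarmin kept in the nucleus (4.40 and 2.13 FPKM, -1.05), and Il1rn (3.67 and 1.81 FPKM, -1.02). In ES cells none of the 9 reached 1 FPKM, the highest being Il1f9 at 0.379 FPKM and Il33 at 0.371 FPKM in either group.

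Of the 8 other receptors of the family, 4 reached 1 FPKM in MEFs and 2 were lower (median -0.71, with 8.85% of all genes lower), Il1r1 and Il1rl2 with the values given above. In hepatocytes 3 did and 1 was lower (median -0.30, with 5.91% of all genes lower), again Il1r1, at 8.06 FPKM in Ad-Luc and 4.97 FPKM in Ad-Cre cells (-0.70). In ES cells the inhibitory receptor Sigirr alone reached 1 FPKM, at 13.7 and 14.0 FPKM (0.03). A list of 5 secreted cytokine decoys and antagonists, which work as Il18bp does by keeping a cytokine from its receptor, shares Il1rn and Il1r2 with these lists. In MEFs 3 of the 5 reached 1 FPKM and 2 were lower (median -1.18, with 8.85% of all genes lower). They were Il1rn and Tnfrsf11b, the decoy for the bone cytokine RANKL, at 32.9 and 14.5 FPKM (-1.18). In hepatocytes Il1rn was the only one at 1 FPKM or more, and in ES cells there was none.

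**Figure D4:**
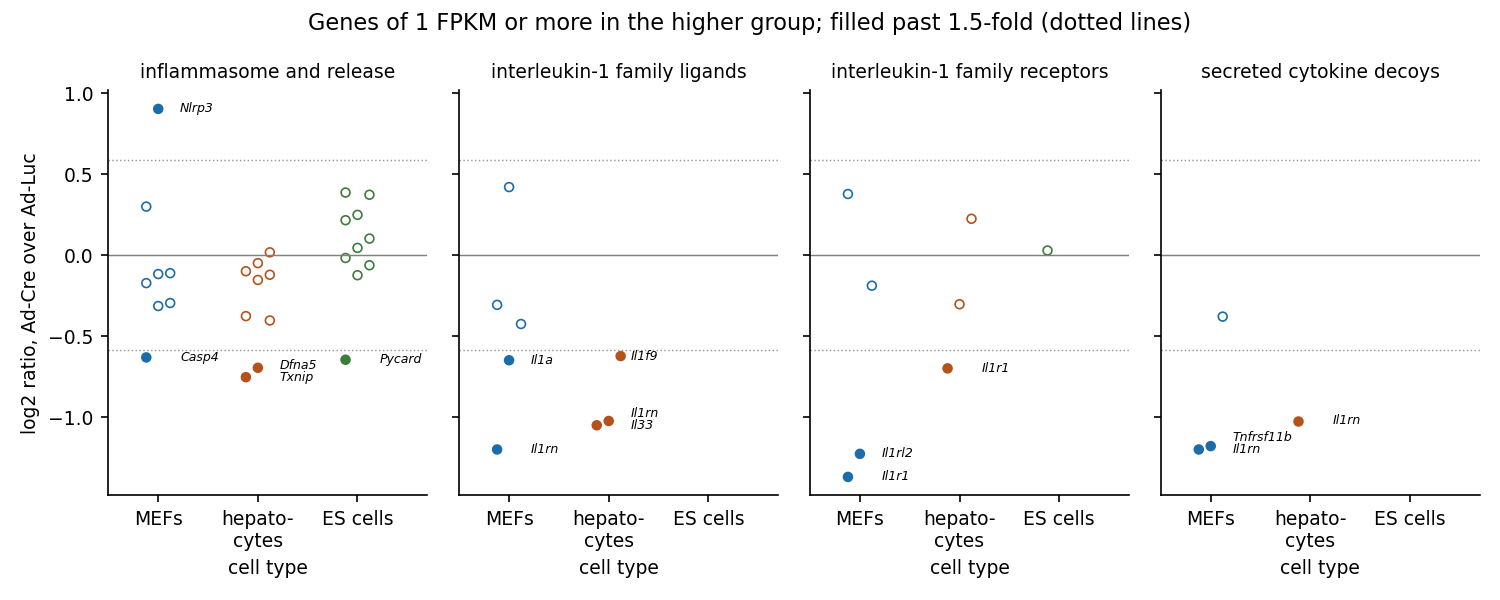
Log2 ratio of Ad-Cre over Ad-Luc for genes with 1 FPKM or more in their larger value, in 4 lists and 3 cell types, with 1 point per gene, filled and named where past 1.5-fold (dotted lines). Nlrp3 in MEFs was the only filled point above 0, and Il1rn was filled in both MEFs (-1.20) and hepatocytes (-1.02).

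Signalling below the receptor runs from Myd88 through IRAK kinases and Traf6 to NF-κB and p38. Of the 33 genes of this list, 32 reached 1 FPKM in MEFs, none was higher and 2 were lower (median -0.04), below the 8.43% and 8.85% of all genes. These were Tnfaip3, which encodes the NF-κB inhibitor A20 (9.12 and 5.24 FPKM in Ad-Luc and Ad-Cre MEFs, -0.80), and the ubiquitin ligase gene Peli2 (2.01 and 1.21 FPKM, -0.73). In hepatocytes, 32 reached 1 FPKM and none passed 1.5-fold in either direction (median 0.05), where 6.55% of all genes were higher and 5.91% lower. The pair with the highest level there was Nfkbia, another NF-κB inhibitor (73.6 and 70.6 FPKM, -0.06), and Tnfaip3 (44.4 and 63.1 FPKM, 0.51). In ES cells, 29 reached 1 FPKM and none passed (median -0.03), with the ubiquitin-conjugating factor Ube2v1 at 127 and 133 FPKM and the p38 kinase Mapk14 at 53.4 and 53.3 FPKM. Of all genes in ES cells 2.39% were higher and 0.845% lower, so none among 29 is near that background. Myd88, the adaptor of this receptor family, was named after its values were seen, and its log2 ratio was 0.19 in ES cells, 0.07 in hepatocytes and 0.06 in MEFs.

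The path from interferon-γ to Il18bp was followed with 14 genes, among them the cytokine, its receptor, the JAK kinases and the IRF and C/EBP factors. None passed 1.5-fold in any cell type. In MEFs 12 reached 1 FPKM (median -0.14 beside 0.04 for all genes, of which 8.43% were higher and 8.85% lower). For the 12 at this level in hepatocytes the median was -0.14, beside 0.02, where 6.55% of all genes were higher and 5.91% lower. The 11 of ES cells had a median of -0.01 beside 0.01. Only 2.39% of all genes were higher there and 0.845% lower, so none among 11 is near that background. Ifng, the interferon-γ gene, was listed at 0 in all 6 groups. Irf1, named after its values were seen, had log2 ratios of -0.01 in ES cells, -0.08 in MEFs and -0.16 in hepatocytes. Cebpb, which encodes C/EBPβ, was at 265 and 379 FPKM in MEFs (0.52), 145 and 144 FPKM in hepatocytes (-0.01) and 11.1 and 14.7 FPKM in ES cells (0.40), so its Ad-Cre value was not the lower one in MEFs or ES cells. The interferon-γ receptor gene Ifngr1 was at 195 and 208 FPKM in hepatocytes (0.09). In ES cells the pair with the highest level was Ptpn2, a phosphatase of JAK and STAT proteins (42.0 and 43.4 FPKM), and Socs3, an inhibitor of cytokine receptors (34.7 and 35.3 FPKM).

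Targets of interferon-γ were a list of 32. In MEFs 25 reached 1 FPKM, none was higher and 6 were lower (median -0.34 beside 0.04 for all genes, of which 8.85% were lower and 8.43% higher). The 4 with the highest level were Serping1, the C1 inhibitor of complement (142 and 53.4 FPKM, -1.42), Nos2, which makes nitric oxide (10.7 and 6.59 FPKM, -0.70), the chemokine gene Cxcl9 (8.31 and 3.67 FPKM, -1.18) and the guanylate-binding protein gene Gbp5 (8.06 and 3.49 FPKM, -1.21). In hepatocytes 21 reached 1 FPKM, none was higher and 6 were lower (median -0.47 beside 0.02 for all genes, of which 5.91% were lower and 6.55% higher). The 4 with the highest level were Iigp1, an immunity-related GTPase (87.6 and 38.2 FPKM, -1.20), the chemokine gene Cxcl10 (29.6 and 13.2 FPKM, -1.16), and the guanylate-binding protein genes Gbp3 (8.95 and 5.27 FPKM, -0.76) and Gbp2 (5.76 and 3.53 FPKM, -0.71). Of the 21 targets at 1 FPKM or more in both cell types, 1 was lower in both, Nos2, where 116 of all 10901 such genes (1.06%) were. Gbp2 and Gbp3 had log2 ratios of -0.01 and 0.03 in MEFs, while Cxcl9 (0.303 and 0.0666 FPKM) and Gbp5 (0.0429 and 0.0041 FPKM) had lower Ad-Cre values in hepatocytes too, but under the minimum. In ES cells 9 reached 1 FPKM and none passed (median 0.00), with Icam1, an adhesion molecule, at 29.3 FPKM in both groups and Cd74, the invariant chain of MHC class II, at 11.3 and 10.7 FPKM. Of all genes in ES cells 0.845% were lower and 2.39% higher, so none among 9 is near that background. With a minimum of 0.1 FPKM, for which the share of all genes is not given here, 2 genes of the list were lower and 1 higher in ES cells. Il18bp was lower there at low levels and close to the limit, and a link to these targets was not tested.

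**Figure D5:**
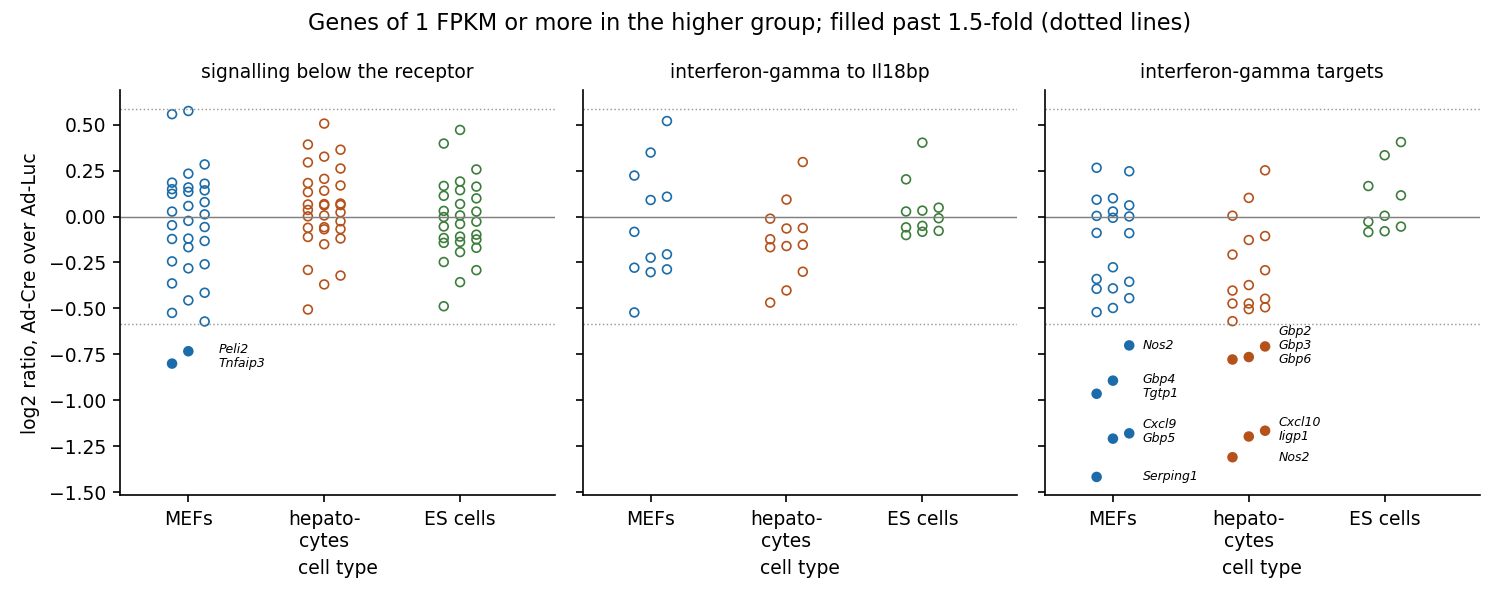
Log2 ratio of Ad-Cre over Ad-Luc for genes with 1 FPKM or more in their larger value, for signalling below the receptor, the path from interferon-γ to Il18bp and interferon-γ targets, with 1 point per gene, filled and named where past 1.5-fold (dotted lines). Of the targets, 6 were lower in MEFs, 6 in hepatocytes and none in ES cells. No gene of the path to Il18bp passed in any cell type. Since only 2.39% of all genes were higher in ES cells and 0.845% lower, a count of none there is near the background.

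Over the 3 log2 ratios, the 5 genes nearest to Il18bp by Euclidean distance among 10026 genes were Ggcx (distance 0.18), Tle2 (0.34), Gm16740 (0.38), Fancc (0.49) and Gm5617 (0.50). Ggcx encodes the carboxylase that uses vitamin K, and was at 35.2 and 13.4 FPKM in MEFs (-1.39), 27.3 and 16.9 FPKM in hepatocytes (-0.69) and 5.72 and 3.90 FPKM in ES cells (-0.55). Tle2, a corepressor of transcription, was at 16.2 and 5.49 FPKM in MEFs (-1.56), 7.99 and 4.16 FPKM in hepatocytes (-0.94) and 1.73 and 1.22 FPKM in ES cells (-0.51). Fancc, of the Fanconi anaemia DNA repair complex, had log2 ratios of -1.48, -1.07 and -0.24. These genes were picked by the same ratios. Their shared order with Il18bp, lowest in MEFs and nearest to 0 in ES cells, thus follows from the choice. This likeness rests on 3 points per gene and on the contrast that selected Il18bp.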

How the data were processed

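RNA-Seq of 16 samples was used as deposited: for each cell type, the authors made a Cuffdiff table with 1 FPKM per gene and group. The tools in the submitters' processing notes are Cuffdiff 2.2.0, TopHat2 2.0.13, CASAVA, edgeR and DESeq, with the build mm10, and the methods describe stranded total RNA libraries with a spike-in. The authors' fold change, test statistic, p and q columns hold their own comparisons and were not used. Because the groups are single values, log2 ratios of Ad-Cre over Ad-Luc were computed without a pseudocount and without a test, at a minimum of 1 FPKM in the higher group and a limit of 1.5-fold. In the ES table the names of the Ad-Luc group hold FS where those of Ad-Cre hold ES, and it was used as the ES control. A line without a gene name was left out of each table.

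The 4 genes, 8 gene lists, 7 marker lists and motifs were chosen with earlier results of these data known. From each list the text names the members past 1.5-fold, up to the 4 with the highest level per direction and cell type, or the 2 with the highest level where none passed. Other names are genes within 20 kb of an axis gene, the 5 genes nearest to Il18bp by ratio and by level, genes lower in all 3 cell types, and markers. A gene that this rule picks is not reported here. Code was checked on simulated tables (Python 3.11.15, pandas 2.3.3). The 9 alternatives were other minimums, pseudocounts, centrings, a 2-fold limit and genes that Cuffdiff marked OK. Promoter windows are those of RefSeq.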

Additional observations from a re-analysis of the deposited data

How the results depend on the processing

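No paired analysis was possible because the tables hold 1 value per group, and for the same reason no replicate could be left out. Depth, and with it the counting error of Il18bp in ES cells and of Il18r1, is unknown. Il18bp remained among the genes lower in all 3 cell types under 5 of 9 alternatives and left it with a minimum of 5 FPKM (where it has no ES value), with either pseudocount and at 2-fold. No log2 ratio that passed 1.5-fold reversed its sign. The cause of each shift below was not tested beyond what the setting itself does.

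The number of genes lower in all 3 cell types was 3, and became 15 with a minimum of 0.1 FPKM, 44 with no minimum, 11 centred on the ribosomal protein genes and 1 at 2-fold. The ES log2 ratio of Il18bp was -0.34 with 1 FPKM and -0.55 with 0.1 FPKM added, inside 1.5-fold, and at a 2-fold limit neither -0.59 in ES cells nor -0.81 in hepatocytes passed. That of Il18 in MEFs was -0.50 with 1 FPKM added, and -0.80 did not pass 2-fold. Il18r1 passed in MEFs at 2.84 with a minimum of 0.1 FPKM or none, and in ES cells at -1.19 with none, from values of 0.0124 and 0.00544 FPKM. Over the 127 genes of the 8 lists, 0 were higher and 1 lower in ES cells, 0 and 12 in hepatocytes, and 1 and 15 in MEFs. Fewer than 127 reached 1 FPKM and could be called. Of all genes at 1 FPKM or more, 2.39% were higher and 0.845% lower in ES cells. These shares were 6.55% and 5.91% in hepatocytes and 8.43% and 8.85% in MEFs. They hold for the main setting alone. Each alternative also changes which of all genes are called, and the shares under the alternatives are not given here. Nothing is therefore read from the counts that follow. Higher genes in MEFs numbered 9 with a minimum of 0.1 FPKM, 13 with none, and 0 with a minimum of 5 FPKM, with 1 FPKM added or at 2-fold. Lower genes in MEFs numbered 30 centred on the ribosomal protein genes and 7 at 2-fold. In hepatocytes, higher genes numbered 5 with a minimum of 0.1 FPKM and 8 with none, and lower genes 7 with a minimum of 5 FPKM, 20 with none and 5 at 2-fold. In ES cells, higher genes numbered 1 with a minimum of 0.1 FPKM and 4 with none, and lower genes 3 with a minimum of 0.1 FPKM, 6 with none, 2 centred on the ribosomal protein genes, and 0 with 1 FPKM added or at 2-fold. The median log2 ratio of 72 ribosomal protein genes was 0.23 in ES cells, -0.07 in hepatocytes and 0.27 in MEFs.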

Other observations

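The cytokines that act with interleukin-18 on T and NK cells, interleukin-12 and interleukin-15, were followed with 9 genes. In each cell type 3 of them reached 1 FPKM. In MEFs 1 was lower and none higher, where 8.85% and 8.43% of all genes were (median log2 ratio 0.03 beside 0.04). It was Il15ra, the chain that presents interleukin-15, at 5.23 FPKM in Ad-Luc and 3.43 FPKM in Ad-Cre cells (-0.61). With 1 FPKM added or at 2-fold it was not called. None passed 1.5-fold in hepatocytes (median -0.23) or ES cells (median 0.03). Of all genes, 5.91% were lower and 6.55% higher in hepatocytes, and 0.845% and 2.39% in ES cells. The interleukin-12 chain Il12a was at most at 0.0141 FPKM in any group.

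By Ad-Luc level over the 3 cell types, the 5 genes nearest to Il18bp among 10030 were Zhx1, 4933439C10Rik, Tet3, 9430020K01Rik and Atxn7. Zhx1, a zinc finger homeobox factor, was at 5.21 FPKM in MEFs, 8.69 FPKM in hepatocytes and 1.64 FPKM in ES cells, beside 5.30, 8.31 and 1.70 FPKM for Il18bp. Its log2 ratios were -0.39, -0.27 and -0.11, and none of the 5 passed 1.5-fold in any cell type. Most of all genes did not pass it either.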
